A study of Mus musculus with 6 samples.

Results

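The chromatin of 10 mouse genes of senescence and cell-cycle arrest was examined in mesenchymal stem cells (MSCs), multipotent stromal cells, of young and old mice. The genes were Cdkn1a, Cdkn1b, Cdkn2a, Cdkn2b, Trp53, Mdm2, Rb1, Ccnd1, Lmnb1 and Glb1. Their regions were those that overlapped a gene body, extended by 5 kb on both sides, by at least 1 base. This rule took 13 of 24431 regions, and all 10 genes had at least 1. Acetylated histone H3 (H3ac) had been profiled by CUT&RUN, in which an antibody guides a nuclease to marked chromatin and the released DNA is sequenced. The group Young was untreated cells of mice aged 3 to 5 months and the group Old was untreated cells of mice aged 18 to 22 months. The group OldAcetate was cells of the same age as Old that had been given sodium acetate at 5 mM for 3 days. Each group had 2 libraries, and all cells were kept at 2% oxygen with 10% FBS and 1% penicillin/streptomycin. The labels do not say whether libraries of a group came from separate mice or cultures, so p-values measure only the spread between these libraries, which may be technical.

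Acetylation of histone H3 marks open, active promoters and enhancers. Cell-cycle arrest in senescence rests on a pair of linked pathways. In the first, p53 (Trp53) activates the kinase inhibitor p21 (Cdkn1a), Mdm2 targets p53 for degradation, and Arf, a product of Cdkn2a, blocks Mdm2. In the second, Ink4a, the other product of Cdkn2a, and Ink4b, the product of Cdkn2b, inhibit the kinases that bind cyclin D1 (Ccnd1), which keeps the retinoblastoma protein (Rb1) active as a repressor of E2F target genes. Cdkn1b encodes p27, a kinase inhibitor of quiescent cells. Lmnb1 encodes lamin B1 of the nuclear lamina, which is commonly lost in senescent cells, and Glb1 encodes the lysosomal beta-galactosidase behind the senescence-associated staining. H3ac at these genes is a measure of chromatin and not of RNA, protein or the number of senescent cells.

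Library totals ranged from 2163351 to 3039481 reads, and a region of the 10 genes held 23 to 389 reads in a library, which gives a counting error of 20.9% to 5.07%. These errors cover counting only. The share of reads inside regions was 57.8% and 64.8% for the Young libraries, 45.9% and 49.9% for Old and 56.3% and 57.3% for OldAcetate. The median level over all regions in Old was 79.6% of that in Young, in OldAcetate it was 116% of that in Old and 92.4% of that in Young (exact permutation test, two-sided, p = 0.333 each, the smallest p that 2 libraries against 2 can give). Values are given in RPM, the reads of a region relative to all reads of the library, as deposited ("as given") and, for tests, also after scaling. Scaling subtracted from each library its median log2 deviation from the region means, which removes a shift shared by all regions. In a pool of cells, fewer cells with acetylated chromatin at a gene and less acetylation per cell cannot be told apart. All 9 MSC markers examined had a region within 1 kb of their start, with a summed level of 549 to 636 RPM in Young, 451 to 483 RPM in Old and 570 to 571 RPM in OldAcetate. Of the blood cell markers, Csf1r had one, at 19.2 to 21.4 RPM in Young, 9.94 to 15.3 RPM in Old and 11.4 to 14.6 RPM in OldAcetate, and its part in the results was not tested, while Ptprc, Itgam, Adgre1 and Cd3e had none. Of 3 endothelial markers only Pecam1 had one, at 6.36 to 12.9 RPM.

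The 13 regions were long and lay mainly over gene starts. Their median length was 14000 bp, beside 5500 bp over all regions, and 3 of them exceeded 20 kb, as did 6.57% of all regions. A start of a protein-coding transcript of the member itself lay in 10 of the 13. Each of the 13 carried all 3 of the group codes in its region name (Y, O and AC, not defined in the labels), as did 80.6% of all regions.

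The longest region, chr6:134916001-134950500 (mm10), covered the whole of Cdkn1b and ran 30.1 kb past its start. At Cdkn1a, chr17:29089501-29097500 reached from 1.48 kb before the gene start to 6.52 kb inside it and held 66.9% of the gene body. The Cdkn2a and Cdkn2b locus was split into a pair of regions. The first, chr4:89273001-89284500, held the start of transcript Cdkn2a-201, the Ink4a form, and is called the Ink4a region below. The second, chr4:89286001-89312500, held the start of Cdkn2a-202, the Arf form, together with the whole of Cdkn2b, so one value stands for both genes there. It is called the Arf/Cdkn2b region.

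Trp53 had chr11:69577501-69584000, which also held the start of Wrap53, the neighbour transcribed in the opposite direction, and covered 31.6% of the Trp53 body. Mdm2 had chr10:117706001-117724500, which extended 13.7 kb before the gene start. The start of Rb1 lay in chr14:73323501-73329000. A second region 78.8 to 92.8 kb inside Rb1, chr14:73233001-73247000, held the start of Lpar6, a receptor gene nested in Rb1, and only a non-coding start of Rb1 itself. Ccnd1 had chr7:144931501-144947500, over 84.3% of its body. Lmnb1 had 3 regions, with chr18:56706001-56731500 over the start, chr18:56735001-56744000 inside the gene and chr18:56751001-56766000 over the last 5.31% of the body and the sequence beyond. Glb1 had the shortest, chr9:114400001-114403000, over its start and that of Tmppe.

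**Figure D1:**
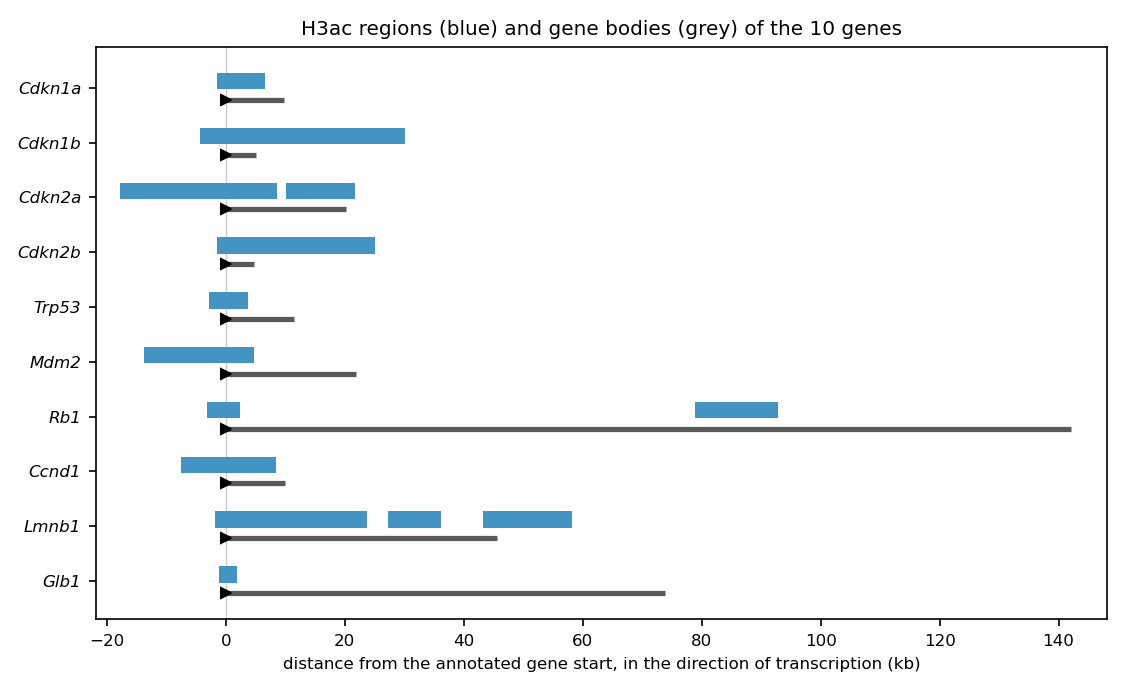
Position of the H3ac regions (blue bars) of the 10 genes relative to the annotated gene start, in kb in the direction of transcription, with the gene body in grey. Regions cover the starts of all 10 genes, with 1 further region inside Rb1, 2 further regions at Lmnb1 and the separate Ink4a region inside Cdkn2a.

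Levels of different genes were compared per kb of region. Glb1 was the densest at 4.39 ± 0.836 RPM per kb (SD over 6 libraries), the 96.9th percentile of all regions, and it exceeded the next region, that over the Rb1 start at 3.49 ± 0.662 RPM per kb, in 6 of 6 libraries. Then followed Ccnd1 at 3.33, Cdkn1b at 3.27, the end of Lmnb1 at 3.21, Arf/Cdkn2b at 3.10, Trp53 at 2.92, Cdkn1a at 2.82, Mdm2 at 2.79, the inner Rb1 region at 2.71 and the Lmnb1 start at 2.69 RPM per kb. Neighbours in this stretch of the order did not differ beyond their spread, since the higher one led in only 3 to 5 of the 6 libraries. The Ink4a region had 2.33 RPM per kb, percentile 25.1, and the inner Lmnb1 region 2.00 RPM per kb, percentile 7.53, the lowest of the 13. Ink4a led the inner Lmnb1 region in 4 of 6 libraries. The median of the 13 regions was 2.92 RPM per kb, beside 2.70 over all regions.

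**Figure D2:**
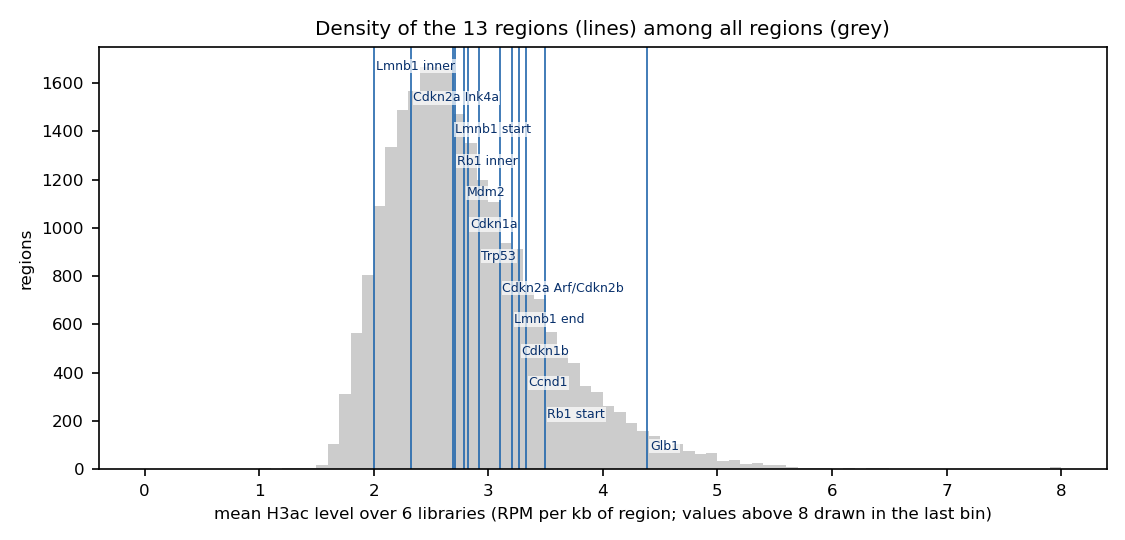
Distribution of the mean H3ac level of all 24431 regions, in RPM per kb of region (x axis, number of regions on the y axis), with the 13 regions as blue lines. Glb1 at 4.39 RPM per kb stands to the right, and the inner Lmnb1 region at 2.00 RPM per kb and Ink4a at 2.33 RPM per kb to the left.

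The kinase inhibitor and Mdm2 promoters that these regions cover differed in base composition, which the choice of genes did not use. The RefSeq promoter table (GRCm38.p6) held 7 of the 10 genes with 9 promoters. Those of Rb1, Ccnd1 and Lmnb1 were not analysed here. In the 250 bases before the start, CG dinucleotides numbered 40 at Arf (98.7th percentile of 32851 promoters), 29 at Mdm2, 28 at Cdkn1b, 12 at Cdkn2b, 7 at Ink4a and 2 at the first start of Cdkn1a (18.8th percentile), beside a median of 6. A second start of Cdkn1a, inside the gene, had 19 (80.3rd percentile). The Ink4a and Arf promoters of the same gene thus stood far apart. The 6 sequences below are shown because they are the starts of the kinase inhibitors and of the p53 antagonist that the acetylation values describe. Each is written 5′ to 3′ on the strand of its gene, up to the first base of an annotated exon, and capitals mark the letters of the motifs named after them.
Cdkn1a, chr17:29090729-29090975, plus strand: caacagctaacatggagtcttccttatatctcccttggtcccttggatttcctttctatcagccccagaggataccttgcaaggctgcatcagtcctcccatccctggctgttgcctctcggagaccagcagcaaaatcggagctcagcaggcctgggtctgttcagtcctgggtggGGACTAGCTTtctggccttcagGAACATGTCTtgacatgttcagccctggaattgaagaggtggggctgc
Cdkn1b, chr6:134920151-134920400, plus strand: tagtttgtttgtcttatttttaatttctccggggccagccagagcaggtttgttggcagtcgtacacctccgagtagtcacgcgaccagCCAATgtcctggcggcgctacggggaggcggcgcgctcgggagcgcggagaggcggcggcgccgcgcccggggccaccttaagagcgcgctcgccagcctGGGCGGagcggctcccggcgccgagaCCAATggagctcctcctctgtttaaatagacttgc
Cdkn2a Ink4a, chr4:89282193-89282442, minus strand: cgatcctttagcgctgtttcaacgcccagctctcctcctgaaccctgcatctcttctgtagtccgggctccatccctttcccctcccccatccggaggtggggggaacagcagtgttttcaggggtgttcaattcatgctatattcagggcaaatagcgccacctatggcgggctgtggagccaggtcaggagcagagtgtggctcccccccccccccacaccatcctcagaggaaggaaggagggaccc
Cdkn2a Arf, chr4:89294654-89294869, minus strand: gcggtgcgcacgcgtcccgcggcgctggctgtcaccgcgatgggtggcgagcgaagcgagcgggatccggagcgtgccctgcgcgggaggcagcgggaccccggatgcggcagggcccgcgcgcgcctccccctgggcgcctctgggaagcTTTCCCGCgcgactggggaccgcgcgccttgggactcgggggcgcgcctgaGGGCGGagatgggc
Cdkn2b, chr4:89311040-89311282, minus strand: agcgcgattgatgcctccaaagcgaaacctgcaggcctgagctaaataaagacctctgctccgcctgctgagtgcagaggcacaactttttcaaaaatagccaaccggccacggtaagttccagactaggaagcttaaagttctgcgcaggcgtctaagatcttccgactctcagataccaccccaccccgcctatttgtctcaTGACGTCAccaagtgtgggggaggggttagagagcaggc
Mdm2, chr10:117710759-117711008, minus strand: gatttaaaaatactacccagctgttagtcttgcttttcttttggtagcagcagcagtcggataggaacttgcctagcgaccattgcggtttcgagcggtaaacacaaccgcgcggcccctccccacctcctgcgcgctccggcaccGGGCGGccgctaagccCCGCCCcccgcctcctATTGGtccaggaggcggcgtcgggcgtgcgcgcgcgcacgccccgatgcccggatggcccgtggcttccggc

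Motifs were searched by their letters on both strands in the 250 bases before each start. Of these bases, 250 at the second Cdkn1a start and 147 at Trp53 are annotated exon, and at most 34 at any other start. GGGCGG, the SP/KLF box, occurred in 4 of the 9 promoters (Cdkn1b, Arf, Mdm2 and an internal start of Cdkn1a) and in 32.7% of all promoters. CCAAT, bound by NF-Y, occurred in 3 (Cdkn1b, Mdm2 and Trp53) and in 33.8% of all. TTTCCCGC or TTTGGCGC, the E2F letters, occurred at Arf only, and in 1.30% of all promoters. TGACGTCA, the cyclic AMP response element, occurred at Cdkn2b only (1.55% of all), CACGTG, the E-box, at Glb1 only (6.02%), and TATAAA at Trp53 only (12.4%). None of these letters was found before the Ink4a start. In the Cdkn1a sequence the capitals mark a pair of exact letter matches to the 10-base p53 motif, spaced by 12 bases. The first base of the pair lies at position -70 from the annotated gene start. Each motif had to begin with 3 bases of A or G. The 10 bases directly after the second motif, tgacatgttc, begin with t, so a pair without a spacer there was not counted. An exact pair, with a spacer of up to 13 bases, was found in 2 of the 13 regions, those of Cdkn1a and the Lmnb1 end, and in 2.64% of all regions. The share differed with region length. Among regions within 25% of the length of each of the 13, the share ranged from 0.827% (as long as Glb1) to 10.4% (as long as Cdkn1b), with 2.69% for Cdkn1a and 4.23% for the Lmnb1 end. A match is a description of letters and not a measured binding site.

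In the kinase inhibitor genes, both Old libraries lay below both Young libraries as given everywhere except at Cdkn1a. Over all 13 regions this held for 11 (84.6%), beside 60.2% of all regions, and no region of the 13 had both Old libraries above both Young, beside 1.29% of all. The 13 regions were longer than most (median 14000 bp, beside 5500 bp over all regions). Shares over regions of like length or reads were not computed. A higher share among the 13, here or below, is therefore not a result about these genes. After scaling, both Old libraries lay below both Young in 3 (23.1%, beside 17.1% of all) and above in 2 (15.4%, beside 16.9%). The Cdkn1a region had 25.3 and 21.6 RPM in the Young libraries, 16.6 and 22.3 RPM in Old, and 24.9 and 24.6 RPM in OldAcetate. The second Old library therefore lay between the Young ones. The Cdkn1b region had 117 and 123 RPM in Young, 92.9 and 99.0 RPM in Old, and 131 and 114 RPM in OldAcetate. Both Old libraries were the lowest of the 6, and the OldAcetate libraries spanned the Young ones.

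The Ink4a region had 24.3 and 27.0 RPM in Young, 22.7 and 21.9 RPM in Old, and 25.5 and 39.2 RPM in OldAcetate. The second OldAcetate library stood above all others, at 94 reads, while the first lay between the Young ones. The Arf/Cdkn2b region had 96.4 and 87.4 RPM in Young, 68.9 and 65.6 RPM in Old, and 89.0 and 85.9 RPM in OldAcetate. Here the Old pair was well separated below the other 4 libraries, and the first OldAcetate library lay between the Young ones.

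Trp53 and its antagonist Mdm2 follow. Trp53 had 22.4 and 25.7 RPM in Young, 15.3 and 13.5 RPM in Old, and 17.8 and 19.2 RPM in OldAcetate. No pair of groups overlapped, with Young highest, OldAcetate between and Old lowest. Each of these separations was common as given. Old lay below Young in 60.2% of all regions, OldAcetate above Old in 47.1% and OldAcetate below Young in 29.8%. The Old libraries held 33 and 34 reads at Trp53. Mdm2 had 52.0 and 52.7 RPM in Young, 49.5 and 44.1 RPM in Old, and 57.1 and 54.2 RPM in OldAcetate. Its groups did not overlap either, but OldAcetate was the highest.

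The Rb1 start had 20.4 and 25.7 RPM in Young, 18.5 and 15.1 RPM in Old, and 18.5 and 17.1 RPM in OldAcetate. The inner Rb1 region, over the Lpar6 start, had 47.7 and 40.4 RPM in Young, 34.2 and 35.8 RPM in Old, and 30.9 and 38.4 RPM in OldAcetate. In both Rb1 regions the OldAcetate libraries overlapped the Old ones and lay below the Young ones. Ccnd1 had 64.8 and 54.3 RPM in Young, 50.8 and 41.0 RPM in Old, and 55.1 and 53.8 RPM in OldAcetate, with the OldAcetate libraries close to the lower Young one.

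Lmnb1 had 3 regions with values in each library. Its start had 89.2 and 70.7 RPM in Young, 57.3 and 59.7 RPM in Old, and 68.9 and 65.9 RPM in OldAcetate. The inner region had 23.0 and 22.5 RPM in Young, 13.4 and 15.9 RPM in Old, and 15.8 and 17.5 RPM in OldAcetate. In both, all Old and OldAcetate libraries lay below both Young ones. The end of the gene had 41.8 and 53.1 RPM in Young, 47.6 and 43.0 RPM in Old, and 49.7 and 53.4 RPM in OldAcetate, so that the Old libraries fell between the Young ones. Glb1 had 14.5 and 14.7 RPM in Young, 10.6 and 11.1 RPM in Old, and 16.8 and 11.3 RPM in OldAcetate, of which the second differed little from Old.

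**Figure D3:**
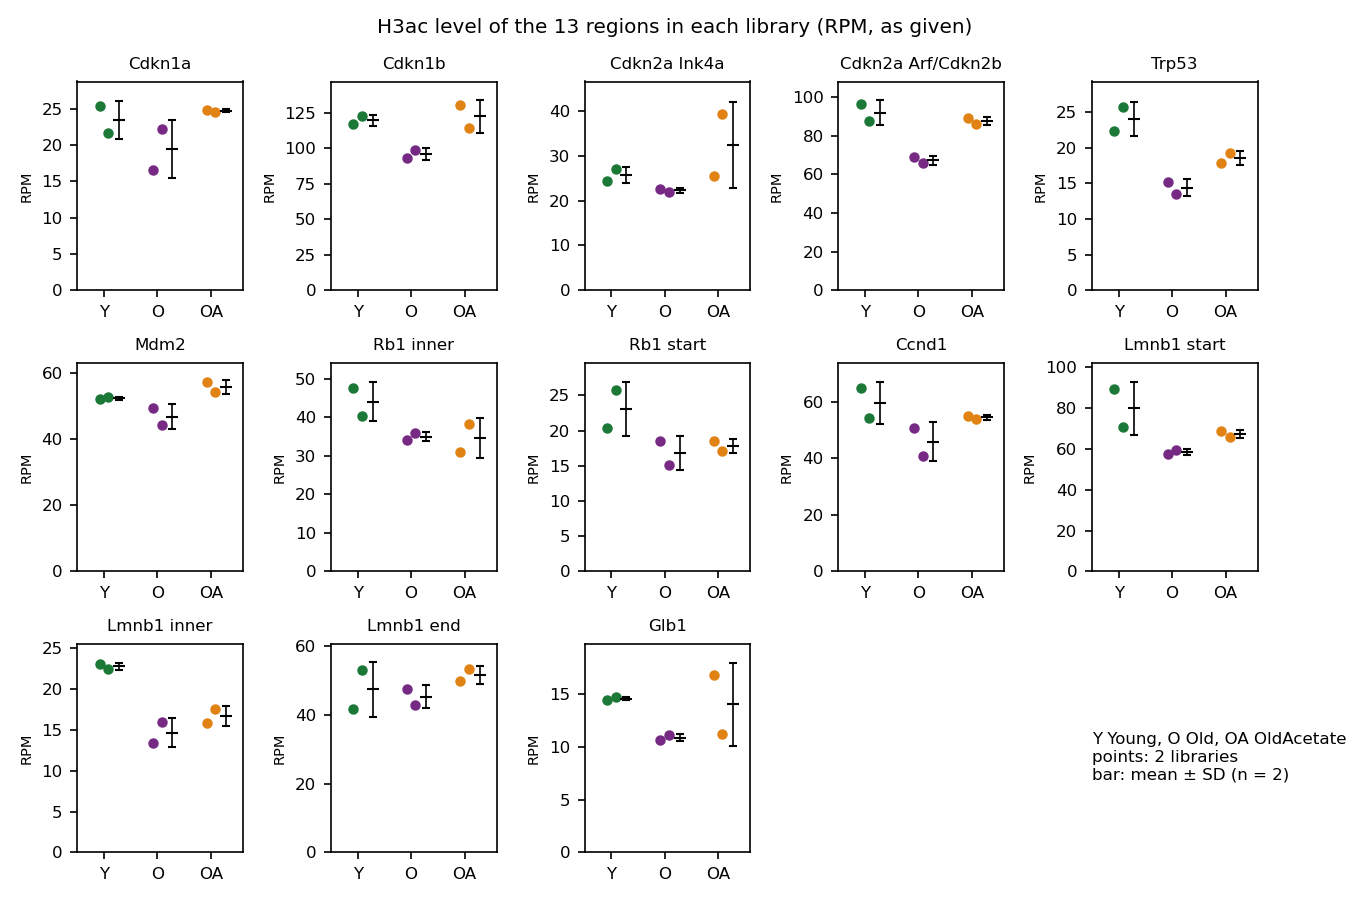
H3ac level of each of the 13 regions in RPM as given (y axis, starting at 0), for Young (Y), Old (O) and OldAcetate (OA), with 1 point per library and the mean ± SD (n = 2) beside each pair. In 11 of the 13 panels both Old points lie below both Young points, the exceptions being Cdkn1a and the Lmnb1 end.

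The first comparison addressed age. As given, the mean H3ac level of all 10 genes was lower in Old than in Young MSCs, as was the median level over all regions. The lowest ratio was that of Trp53, where the Old mean was 59.8% of the Young mean (14.4 ± 1.22 against 24.1 ± 2.38 RPM, SD, n = 2). The kinase inhibitor genes Cdkn2b, Cdkn2a, Cdkn1b and Cdkn1a had 73.2%, 76.1%, 80.1% and 82.8%. Mdm2 was the least different at 89.4%. Once the shift shared by all regions was removed, no region of the 10 genes passed the test in either direction.

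For the remaining genes, summed over their regions, Old was 74.6% of Young at Glb1, 77.1% at Ccnd1, 77.2% at Rb1 and 78.9% at Lmnb1. The sums of 9 of the 10 genes did not overlap between the groups, the exception being Cdkn1a. As given, both Old libraries also lay below both Young in 60.2% of all single regions. The sums of Cdkn2a and Cdkn2b share the Arf/Cdkn2b region and are not independent. The exact permutation test (two-sided) gave p = 0.333 for the 9 genes, the smallest possible, and p = 0.667 for Cdkn1a.

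With limma on the values as given, the log2 change was below 0 in 13 of the 13 regions, as in 92.1% of all regions, with a median of -0.38 beside -0.35 over all regions. Of the 13, 3 passed the threshold of an adjusted p of 0.05 as lower in Old, which is 23.1% beside 9.50% of all regions, and 0 as higher, beside 0.0287%. The share of all regions was not matched to the 13 for length or reads. The 3 were Arf/Cdkn2b at -0.45 (95% interval -0.72 to -0.17, limma adjusted p = 0.0336), Trp53 at -0.72 (-1.17 to -0.27, limma adjusted p = 0.0360) and the Lmnb1 start at -0.44 (-0.73 to -0.14, limma adjusted p = 0.0458). At an unadjusted p under 0.05 there were 6, beside 32.0% of all, the other 3 being Cdkn1b, Ccnd1 and the inner Lmnb1 region. The calls moved with the calls over all regions when a library was left out. Without Young replicate 1 or Old replicate 2, 0 of the 13 were called, beside 0.0368% and 2.01% of all regions. Without OldAcetate replicate 1 or 2, which leaves the Old and Young means and so these fold changes as they were, 0 were called, beside 2.62% and 2.95% of all. Without Young replicate 2 the calls were Arf/Cdkn2b and the Lmnb1 start, beside 8.69% of all, and without Old replicate 1 they were Arf/Cdkn2b, Trp53 and Ccnd1, beside 13.3%. The share of reads inside regions, given above, moved with these differences, and its part in them was not tested.

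After scaling, the median change of the 13 regions was -0.025 (-0.076 to 0.036 when 1 library was left out), beside -0.0045 over all regions, with 7 below 0 (53.8%, beside 50.8% of all) and 6 above. None passed limma at an adjusted p of 0.05, beside 0.00819% of all regions, and 1 had an unadjusted p under 0.05, beside 5.54%. That region was the Lmnb1 end, at 0.29 (0.0019 to 0.58, limma adjusted p = 0.894), and it had 0.040 without Young replicate 1. With edgeR and RLE factors on the recovered reads, 0 of the 13 were called in any of the 3 comparisons. Trp53 had the lowest value at -0.37 (-0.80 to 0.054, limma adjusted p = 0.898), followed by the inner Lmnb1 region at -0.27 (-0.71 to 0.16). Mdm2 had 0.19 (-0.078 to 0.45) and Ink4a 0.15 (-0.23 to 0.54). The narrowest interval was that of Cdkn1b at 0.031 (-0.17 to 0.23), the region with the most reads. The intervals of Cdkn1a (-0.33 to 0.47), the Rb1 start (-0.52 to 0.33) and Glb1 (-0.56 to 0.45) were wider, and a difference inside them was not detectable at this depth.

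The second comparison addressed acetate treatment of old cells. It shares the Old libraries with the first, so both move with the Old values. As given, the OldAcetate mean exceeded the Old mean at all 10 genes, from 134% of Old at Cdkn2a and 130% at Cdkn2b to 115% at Lmnb1 and 101% at Rb1. Glb1 and Trp53 had 129%, Cdkn1b 128%, Cdkn1a 127%, and Mdm2 and Ccnd1 119%. None of these differences passed a test across all regions, with or without scaling.

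As given, both OldAcetate libraries lay above both Old ones in 10 of the 13 regions (76.9%), beside 47.1% of all regions. The exceptions were both Rb1 regions and the inner Lmnb1 region, and none of the 13 had both below, beside 3.46% of all. The shares of all regions were again not matched for length or reads. After scaling, 2 lay above and 2 below (15.4% each, beside 16.7% and 17.2% of all). The log2 change was below 0 in 1, the inner Rb1 region, beside 16.8% of all. The median log2 change was 0.25, beside 0.24 over all regions, and 0 of the 13 were called higher by limma, beside 0.311% of all, with 3 at an unadjusted p under 0.05, beside 18.0% of all. Ink4a had the highest change at 0.50 (0.095 to 0.90, limma adjusted p = 0.190), and Cdkn1b had 0.35 (0.096 to 0.60, limma adjusted p = 0.147). The exact permutation test of the gene sums gave p = 0.333 at 9 genes and p = 1 at Rb1, whose sum was 51.8 ± 1.27 RPM in Old and 52.4 ± 4.30 RPM in OldAcetate.

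After scaling, the median change of the 13 regions was 0.013, beside 0.0018 over all regions, with 5 below 0 (38.5%, beside 49.7% of all). Limma called 0 of the 13, beside 0 of all regions, and 0 had an unadjusted p under 0.05, beside 6.24% of all. The inner Rb1 region had the lowest value at -0.26 (-0.57 to 0.053, limma adjusted p = 0.853), and Ink4a the highest at 0.26 (-0.12 to 0.64, limma adjusted p = 0.889). The value of Ink4a rested on OldAcetate replicate 2 and was -0.057 without it and 0.58 without OldAcetate replicate 1. Arf/Cdkn2b next to it had 0.14 (-0.075 to 0.35) and kept between 0.11 and 0.17 when any one library was left out.

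The third comparison set acetate-treated old cells against untreated young ones, and it shares libraries with both others. As given, Cdkn1a, Cdkn1b, Cdkn2a and Mdm2 had OldAcetate means of 102% to 106% of Young, while Trp53 had 76.9% and Rb1 78.1%. Lmnb1 had 90.3%, Ccnd1 91.4%, Cdkn2b 95.2% and Glb1 96.2%. No region passed the test under either scale.

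As given, both OldAcetate libraries lay below both Young ones in 5 of the 13 regions (38.5%), beside 29.8% of all. These were Trp53, both Rb1 regions, and the start and inner regions of Lmnb1. They lay above both Young ones in 1 region, Mdm2 (7.69%, beside 7.60% of all). After scaling, 4 lay below (30.8%, beside 18.1% of all) and 3 above (23.1%, beside 17.7%). Limma called 0 of the 13 as given and 0 after scaling, beside 0 of all regions in both. After scaling, 1 of the 13 had an unadjusted p under 0.05, beside 5.08% of all, namely Ink4a at 0.41 (0.026 to 0.80, limma adjusted p = 0.964). It was 0.095 without OldAcetate replicate 2. The inner Lmnb1 region had -0.33 (-0.76 to 0.11) and Trp53 -0.26 (-0.68 to 0.17) (limma adjusted p = 0.974 and 0.984). The scaled median of the 13 regions was 0.030, beside 0.0015 over all regions, and as given it was -0.081, beside -0.11. Changes below 0 numbered 6 after scaling (46.2%, beside 49.7% of all) and 8 as given (61.5%, beside 69.2%). As given, 0 of the 13 had an unadjusted p under 0.05, beside 6.10% of all.

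**Figure D4:**
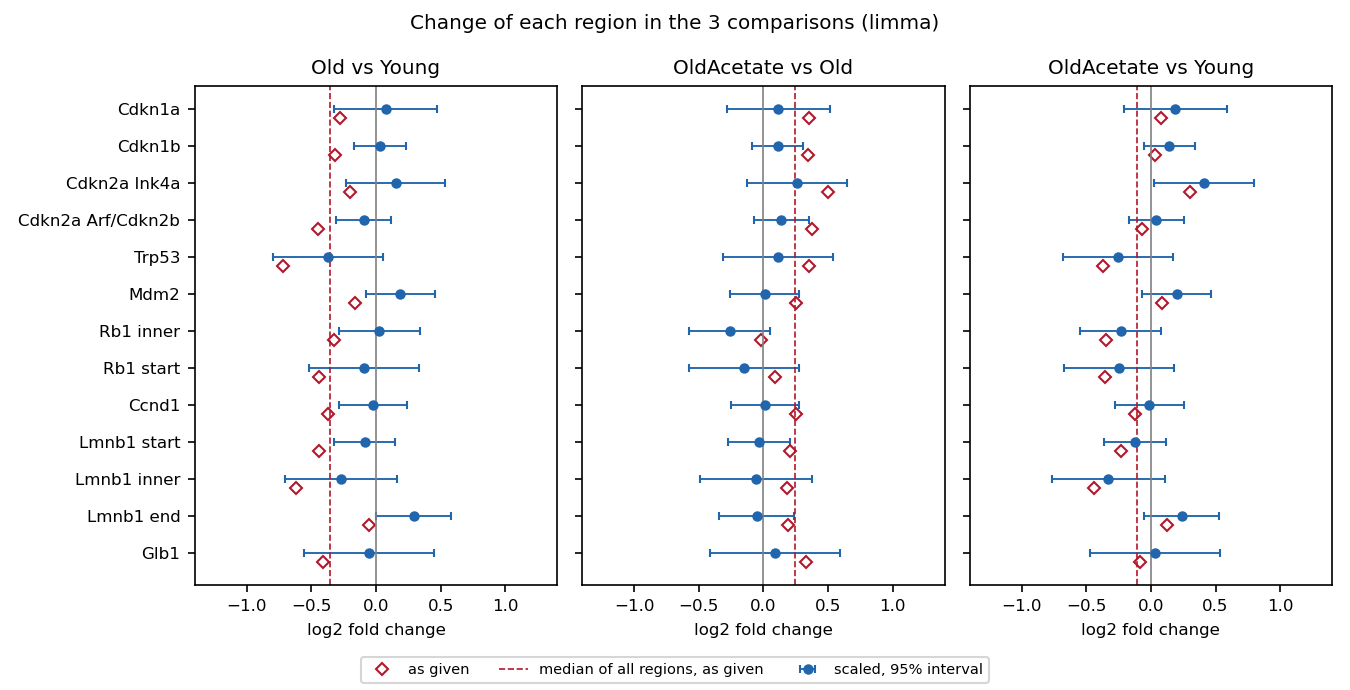
log2 fold change of each of the 13 regions in the 3 comparisons, after scaling (blue points with 95% intervals from limma) and as given (red diamonds), with the median of all regions as given as a dashed red line. Nearly all blue intervals cross 0, the exceptions being the Lmnb1 end in Old vs Young and Ink4a in OldAcetate vs Young, and the red diamonds spread around the dashed lines at -0.35, 0.24 and -0.11.

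A ratio of regions within a library does not depend on the scaling, so regions of the same locus were also compared with each other. The share of reads inside regions differed between libraries, as given above, and its part in these ratios was not tested. The log2 ratio of Ink4a over Arf/Cdkn2b was -1.99 and -1.70 in the Young libraries, -1.60 and -1.58 in the Old libraries and -1.80 and -1.13 in the OldAcetate libraries. Both Old values lay above both Young ones, by 0.25 in the mean (exact permutation test, two-sided, p = 0.333, the smallest possible), and by 0.10 to 0.39 when one library was left out. The difference was 1 of 12 examined, the only one of the 12 with groups apart, and OldAcetate overlapped both other groups.

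The log2 ratio of the Lmnb1 end over the Lmnb1 start was -1.09 and -0.41 in the Young libraries, -0.27 and -0.47 in the Old libraries and -0.47 and -0.30 in the OldAcetate libraries. The first Young library stood apart from the other 5, and the difference of 0.38 between Old and Young became 0.041 without it. The inner Lmnb1 region over the start gave -1.95 and -1.65 in the Young libraries, -2.10 and -1.91 in the Old libraries and -2.12 and -1.91 in the OldAcetate libraries. The inner Rb1 region over the Rb1 start gave 1.23 and 0.65 in the Young libraries, 0.89 and 1.24 in the Old libraries and 0.74 and 1.17 in the OldAcetate libraries. All 3 groups overlapped in both of these ratios (exact permutation p of 0.667 to 1 in the 3 comparisons of each).

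**Figure D5:**
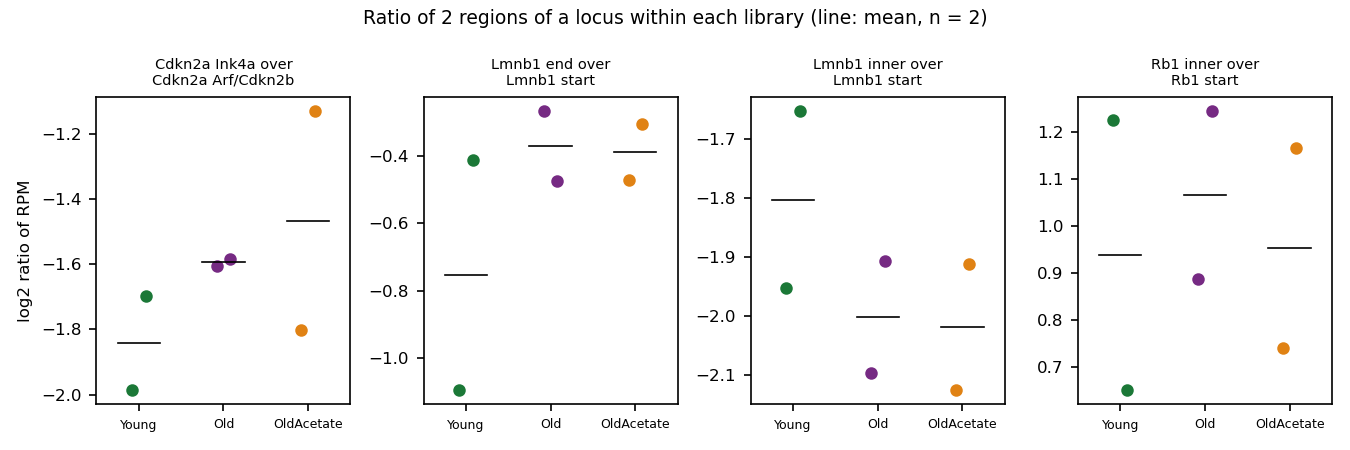
log2 ratio of RPM between 2 regions of the same locus in each library (y axis), for Young, Old and OldAcetate, with the mean of 2 libraries as a line. The Old points of Ink4a over Arf/Cdkn2b, at -1.60 and -1.58, lie above the Young points, and no other pair of groups is apart in the 4 panels.

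The wider network of cell-cycle arrest was followed in a list of 50 further genes, which holds other kinase inhibitors, pocket proteins, E2F factors, cyclins and their kinases, p53 target genes, lamins, lysosomal enzymes and chromatin regulators of the Cdkn2a locus. All 50 had a region, 84 in total. After scaling, limma called 0 of the 84 in each comparison, and 3, 6 and 5 had an unadjusted p under 0.05 in Old vs Young, OldAcetate vs Old and OldAcetate vs Young (3.57%, 7.14% and 5.95%, beside 5.54%, 6.24% and 5.08% of all regions). As given, 12 of the 84 were called lower in Old than in Young (14.3%, beside 9.50% of all), 0 were called higher in OldAcetate than in Old, and 0 were called in OldAcetate vs Young. Their median changes as given were -0.39, 0.28 and -0.093, beside -0.35, 0.24 and -0.11 over all regions.

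Phlda3, a p53 target that restrains AKT, had the lowest p among the list's regions below 0 in Old vs Young. Its region had 192 and 164 RPM in Young, 120 and 115 RPM in Old, and 157 and 158 RPM in OldAcetate, with no overlap between groups. The order of the groups was that of Trp53, for which the shares of all regions with each pair apart are given above. The scaled change of Old vs Young was -0.24 (-0.40 to -0.075, limma adjusted p = 0.808), and as given it was -0.59 (limma adjusted p = 0.00427). Ccnb1, the cyclin of mitotic entry, had the lowest p of those above 0 in OldAcetate vs Old, with 24.7 and 21.2 RPM in Young, 10.6 and 15.1 RPM in Old, and 25.9 and 21.7 RPM in OldAcetate. Its Old libraries lay below the other 4, and the scaled change of 0.64 (0.20 to 1.07) did not pass (limma adjusted p = 0.658, and 0.0541 as given). A second region of Ccnb1, chr13:100774501-100778500, had a scaled change of 0.24 (-0.36 to 0.84).

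E2f6, a repressor of the E2F family, led the list on the opposite side in both of these comparisons. It had 87.5 and 73.9 RPM in Young, 76.7 and 70.4 RPM in Old, and 73.3 and 75.5 RPM in OldAcetate, and all groups overlapped. Its scaled change was 0.22 in Old vs Young (limma adjusted p = 0.894) and -0.22 in OldAcetate vs Old (limma adjusted p = 0.799), and both signs turned as given, to -0.13 and 0.017. A second region of E2f6, chr12:16807001-16813000, had scaled changes of 0.022 and 0.16. In OldAcetate vs Young, E2f5, another repressive E2F factor, had -0.52 (limma adjusted p = 0.964). Its levels were 28.6 and 35.9 RPM in Young and 27.9 and 15.0 RPM in OldAcetate, so the groups did not overlap and the region did not pass. A second region of E2f5, chr3:14609001-14613000, had 18.4 and 17.2 RPM in Young and 18.8 and 15.8 RPM in OldAcetate, which overlapped, with a scaled change of 0.071.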

How the data were processed

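H3ac CUT&RUN was measured in 6 MSC libraries of 3 groups of 2. The submitters' processing notes name mm10, Bowtie2 and Picard, without roles or versions. Yeast DNA was added with the stop buffer, and whether the authors scaled with it is not given in the sources used here. The deposited RPM table, named as RPKM, gives 1 row per region called jointly by the authors and was not divided by region length. All values (100%) were whole multiples of one step per library (tolerance 0.01), so reads and library totals were recovered from it. The study text at hand describes other experiments, and no method was taken from it.

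Gene bodies were those of GENCODE M21. The members, lists and tests were chosen with earlier results of these data known. Named were all 10 genes with every region of theirs and, from the list of 50 genes, per comparison the called regions or else the lowest p on each side of 0. Some items that these rules take are not reported here. The region test was limma 3.58.1 (R 4.3.3), run on log2(RPM + 0.5) with median scaling, in one fit of group means over 24431 regions and 6 libraries, with eBayes using trend and robust, and adjusted by Benjamini-Hochberg at 0.05. Fold changes are on the log2(RPM + 0.5) scale, which understates changes of low regions. Gene sums and region ratios were compared by exact two-sided permutation tests over libraries. The fit was tested on simulated data, with changes larger than those of the 10 genes and in regions of at least the median reads. The simulation therefore does not show that changes of the size seen here could be found.

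The fit was repeated with pseudocounts of 0.1 and 1, without scaling, with quantile normalization, without the 25% of regions of lowest mean, at a threshold of 0.01, with a block for the replicate number, on the compared libraries alone, with plain eBayes, with edgeR 4.0.16 on recovered reads with RLE factors and without factors, gene bodies extended by 0 and 10 kb, regions over starts only, and leaving out libraries. Leaving out libraries from the fit without scaling, and the region ratios, were added after seeing the data. Deviations of libraries with the same replicate number correlated at 0.0093, -0.034 and -0.043, so the numbers were not taken to pair libraries. Python 3.11.15 and matplotlib 3.10.9 served for the other steps and the figures.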

Additional observations from a re-analysis of the deposited data

How the results depend on the processing

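After scaling, no alternative called a region of the 10 genes, with 0 in all 3 comparisons under both pseudocounts, quantile normalization, the filter, both thresholds, eBayes without trend and robust, edgeR with RLE factors and each omission of a library. With the replicate number as a block, 0 of the 13 and 2, 0 and 0 of all regions were called in Old vs Young, OldAcetate vs Old and OldAcetate vs Young. The block thus changed no count of calls. With so few calls, this cannot show whether the numbers pair the libraries. Without scaling factors, Old vs Young gave 3 calls among the 13 by limma and 3 by edgeR, as that setting keeps the shift of all regions. All regions called were then 2327 and 2524, beside 2 with scaling, and the medians of the 13 were -0.38 and -0.39. In OldAcetate vs Old all calls were 76 and 21 and the medians 0.25 and 0.26. The list of 50 genes had 12 calls in Old vs Young and medians of -0.39, 0.28 and -0.093 as given. With scaling, all calls in Old vs Young were 1 at a threshold of 0.01, 5 with quantile normalization, 0 without trend and robust, 5 with edgeR and RLE factors and 1 with only the compared libraries, and in OldAcetate vs Old they were 2 with quantile normalization and 2 with only the compared libraries. Regions that changed sign without scaling, by limma and edgeR, were in Old vs Young Cdkn1a (-0.28 and -0.27), Cdkn1b (-0.32 and -0.32), Ink4a (-0.20 and -0.20), Mdm2 (-0.16 and -0.16), inner Rb1 (-0.32 and -0.34) and the Lmnb1 end (-0.058 and -0.060). In OldAcetate vs Old they were the Rb1 start (0.086 and 0.096), Lmnb1 start (0.20 and 0.20), inner Lmnb1 (0.18 and 0.17) and Lmnb1 end (0.19 and 0.19), and in OldAcetate vs Young Arf/Cdkn2b (-0.069 and -0.073) and Glb1 (-0.081 and -0.031). Quantile normalization turned Mdm2 in OldAcetate vs Old to -0.000729.

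Leaving out one library gave 0 to 9, 0 to 3 and 0 to 4 calls over all regions in the 3 comparisons, and 0 to 3 calls among the 13 as given in Old vs Young. The scaled median of the 13 regions ranged from -0.076 to 0.036, -0.0056 to 0.093 and -0.016 to 0.056 in Old vs Young, OldAcetate vs Old and OldAcetate vs Young, and with gene bodies extended by 10 kb it was 0.026, 0.011 and 0.030 in the same order. Changes that crossed 0 were in Old vs Young Ccnd1 (-0.12 to 0.068), Cdkn1a (-0.19 to 0.34), Cdkn1b (-0.083 to 0.15), Ink4a (-0.0019 to 0.31), Glb1 (-0.15 to 0.036), Lmnb1 start (-0.18 to 0.0022), inner Rb1 (-0.067 to 0.12) and Rb1 start (-0.34 to 0.15). In OldAcetate vs Old they were Ccnd1 (-0.079 to 0.11), Cdkn1a (-0.15 to 0.38), Ink4a (-0.057 to 0.58), Glb1 (-0.18 to 0.35), Lmnb1 end (-0.12 to 0.011), inner Lmnb1 (-0.24 to 0.12), Lmnb1 start (-0.13 to 0.055) and Mdm2 (-0.013 to 0.036). In OldAcetate vs Young they were Ccnd1 (-0.055 to 0.034), Glb1 (-0.24 to 0.30), Lmnb1 end (-0.012 to 0.49) and Rb1 start (-0.49 to 0.00062). Differences of summed RPM that crossed 0 were in OldAcetate vs Young Ccnd1 (-10.4 to 0.131), Cdkn1a (-0.596 to 3.09), Cdkn1b (-5.55 to 10.9), Cdkn2a (-2.97 to 7.57), Cdkn2b (-8.91 to 0.0733) and Glb1 (-3.33 to 2.21), and in OldAcetate vs Old Rb1 (-2.41 to 3.67). The cause was not tested in any of these. With 2 libraries a group, an omission leaves 1 library that is assumed to vary like the other groups.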
